A study of Mus musculus with 6 samples.

Results

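The Iroquois homeobox genes Irx1, Irx2, Irx3, Irx4, Irx5 and Irx6 were taken by symbol from the deposited gene counts, which gave 6 of 53801 genes. They were followed in chemically induced cardiovascular progenitor cells (ciCPCs) of the mouse, progenitors made in culture with small molecules, at passage 3 and at passage 20. Each passage had 3 RNA-seq libraries. Cells of both passages were wild type, came from a mixed C57BL/6 and 129J/SvE background, and were kept in medium with BMP4, Activin A, CHIR99021 (an inhibitor of glycogen synthase kinase that activates Wnt signalling) and SU5402 (an inhibitor of FGF receptors). The comparison asked what long expansion, from the early to the late passage, changed in the cells.

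Iroquois genes encode transcription factors with a homeodomain of the TALE class, which carries an extended loop, and with the Iro box, a short motif shared by the family. In the mouse they lie in a pair of clusters that arose by duplication: IrxA on chromosome 13 holds Irx1, Irx2 and Irx4, and IrxB on chromosome 8 holds Irx3, Irx5 and Irx6. In the embryo Irx3 and Irx5 are known for shared roles in limb bud, heart and neural patterning, Irx4 marks the ventricular myocardium, and Irx1 and Irx2 are expressed in lung, limb and the ventricular septum, among other sites.

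The homeodomain is the stretch in which the family members are most alike, so a window of 60 coding bases that holds the DNA-contacting recognition helix is shown for each gene. Sequences are 5′ to 3′ on the coding strand of the GRCm38 genome with GENCODE M21 models, and capitals mark the 52 bases identical in all 6 genes.
Irx1: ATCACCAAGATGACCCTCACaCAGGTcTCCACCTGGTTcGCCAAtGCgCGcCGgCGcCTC
Irx2: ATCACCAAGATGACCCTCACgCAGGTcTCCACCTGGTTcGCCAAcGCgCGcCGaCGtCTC
Irx4: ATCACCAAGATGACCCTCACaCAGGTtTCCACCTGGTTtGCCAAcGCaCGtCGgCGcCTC
Irx3: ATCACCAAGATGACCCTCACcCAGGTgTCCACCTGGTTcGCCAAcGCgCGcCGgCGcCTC
Irx5: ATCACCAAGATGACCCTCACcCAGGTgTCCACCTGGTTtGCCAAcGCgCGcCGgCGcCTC
Irx6: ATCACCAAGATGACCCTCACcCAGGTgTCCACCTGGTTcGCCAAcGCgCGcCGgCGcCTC
The IrxA windows lie at chr13:71960007-71960066 (Irx1, minus strand, exon 2 of 4), chr13:72630778-72630837 (Irx2, plus strand, exon 2 of 5) and chr13:73267637-73267696 (Irx4, plus strand, exon 5 of 6). The IrxB windows lie at chr8:91800511-91800570 (Irx3, minus strand, exon 2 of 4), chr8:92359741-92359800 (Irx5, plus strand, exon 2 of 5) and chr8:92677350-92677409 (Irx6, plus strand, exon 4 of 6). The windows of Irx3 and Irx6 were identical in all 60 bases. Compared with Irx3, the window of Irx5 matched in 59 bases, that of Irx1 in 57, that of Irx2 in 56 and that of Irx4 in 55.

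Identity between members bears on how reads can be assigned. The longest exact run shared by any pair was 88 coding bases in Irx3 and Irx6, shown with the 60-base window in capitals.
Irx3 and Irx6: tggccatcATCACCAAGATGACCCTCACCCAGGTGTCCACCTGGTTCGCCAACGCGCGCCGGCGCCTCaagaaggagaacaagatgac
It lies at chr8:91800491-91800578 in Irx3 and at chr8:92677342-92677429 in Irx6. The next longest run was 65 coding bases shared by Irx2 (chr13:72630733-72630797) and Irx5 (chr8:92359696-92359760), and the other pairs shared at most 50. A read that lies wholly inside such a run cannot be assigned to 1 gene, the sources used here do not give the read length, and the counts of Irx6 and Irx2, which are low, are uncertain to that extent.

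Libraries held 11387738 to 17721788 counts in genes. Levels below are CPM (counts scaled to a fixed total per library, here with TMM factors), as mean ± SD with n = 3 per passage, and log2 fold changes are passage 20 over passage 3 with their standard error (SE). In log2 CPM the passage 20 libraries correlated with each other at Pearson's r of 0.986 to 0.993 across genes, which are not independent, and replicate 3 of passage 20 stood nearest to passage 3 (r of 0.914 to 0.920, against 0.893 to 0.903 for the others). The labels do not say that replicates were separate cultures, so each p-value reflects the spread among the libraries alone, which may be technical, and passage cannot be told apart from differences in culture, harvest or library preparation. All 10 cardiac progenitor markers examined passed the low-count filter, with a summed level of 775 to 799 CPM at passage 3 and 644 to 714 CPM at passage 20. Single markers moved apart within that sum, with 5 higher and 5 lower at passage 20. They ranged from Tbx1, 25.1-fold lower (577 counts at passage 3, 14 at passage 20), to Mesp1, 14.0-fold higher (8 and 74 counts). Mesp1 passed the filter through its passage 20 libraries alone, so its filter and test are not independent. Of 10 cardiomyocyte markers 5 passed the filter, and Myl2, which defines ventricular muscle, had 0 counts in every library.

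Both large members of the family, Irx3 and Irx5, were far lower at passage 20, Irx6 fell nearly out of detection and Irx1 fell less, while Irx2 rose. Irx4 was at or near 0 throughout. Of the 6 genes, 5 passed the low-count filter, of which 4 were lower and 1 higher at an adjusted p under 0.05. Across the 15143 genes tested 74.3% were called, 37.0% higher and 37.3% lower, so a call by itself was common in this comparison. Irx6 passed the filter through its passage 3 libraries alone and Irx2 only with the help of its passage 20 libraries, so for these 2 the filter and the test are not independent. The passages did not overlap for any of these 5 members, a property shared by 77.5% of the genes tested.

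**Figure D1:**
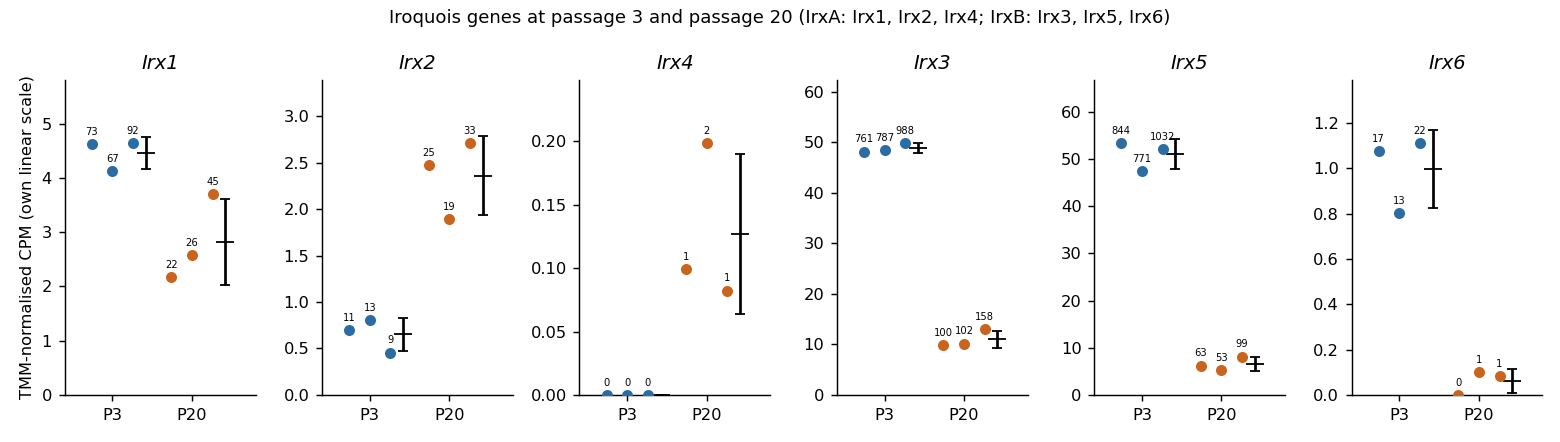
TMM-normalised CPM of each Iroquois gene in the 3 libraries of passage 3 (P3, blue) and passage 20 (P20, orange), each gene on its own linear scale from 0; numbers beside the points are raw counts and bars are mean ± SD. Irx3 and Irx5 drop from means of 48.9 and 51.0 CPM to 11.0 and 6.55 CPM, while Irx2 rises and Irx4 and Irx6 rest on few counts.

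Irx3 (ENSMUSG00000031734, chr8:91798525-91802067, minus strand), which acts in limb, neural and cardiac patterning, had 48.2, 48.5 and 49.9 CPM in the passage 3 libraries. At passage 20 it had 9.90, 10.1 and 13.0 CPM. The passage 3 libraries were nearly equal, and every passage 20 library lay far below them, replicate 3 being the highest. The mean fell from 48.9 ± 0.933 to 11.0 ± 1.72 CPM, which was 4.41-fold lower (log2 fold change -2.14, SE 0.10, edgeR's quasi-likelihood test, p adjusted by Benjamini-Hochberg = 1.07e-08). Of the genes tested, 3.81% had a lower log2 fold change.

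Irx5 (ENSMUSG00000031737, chr8:92357625-92376286, plus strand), which acts with Irx3 in the limb and sets the gradient of repolarising current across the ventricular wall, had 53.5, 47.5 and 52.2 CPM at passage 3. It had 6.24, 5.27 and 8.14 CPM at passage 20. The order of the passage 20 libraries matched that of Irx3 only in that replicate 3 was again the highest. Irx5 fell from 51.0 ± 3.15 to 6.55 ± 1.46 CPM, 7.70-fold lower (log2 fold change -2.94, SE 0.13, edgeR's quasi-likelihood test, p adjusted by Benjamini-Hochberg = 5.23e-09). Of the genes tested, 1.74% had a lower log2 fold change. In bulk RNA, fewer cells that express a gene and less RNA of it per cell cannot be told apart.

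Irx6 (ENSMUSG00000031738, chr8:92674288-92680956, plus strand), known from retinal bipolar cells, had 17, 13 and 22 counts at passage 3, or 1.08, 0.801 and 1.11 CPM. It had 0, 1 and 1 counts at passage 20. The gene was thus detected in every early library and close to 0 in every late one. With 2 counts left at passage 20, the ratio of pooled CPM was 16.2-fold lower, with a 95% counting interval of 4.27 to 137 that covers counting error only. The fitted log2 fold change was -3.84 (SE 0.59, edgeR's quasi-likelihood test, p adjusted by Benjamini-Hochberg = 0.000121), and -1.19 on the authors' deposited log2 values, tested with limma.

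In the IrxA cluster, Irx1 (ENSMUSG00000060969, chr13:71957921-71963723, minus strand), a regulator in lung, limb and heart, had 4.62, 4.13 and 4.65 CPM at passage 3. It had 2.18, 2.59 and 3.70 CPM at passage 20. Replicate 3 of passage 20 came nearest to the passage 3 libraries, without reaching them, and the other two were lower. Irx1 fell from 4.47 ± 0.295 to 2.82 ± 0.788 CPM, 1.56-fold lower (log2 fold change -0.64, SE 0.20, edgeR's quasi-likelihood test, p adjusted by Benjamini-Hochberg = 0.0133). Without replicate 1 of passage 20 the call was lost, at a log2 fold change of -0.49 (adjusted p = 0.0553). Of the genes tested, 23.0% had a lower log2 fold change than Irx1.

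Irx2 (ENSMUSG00000001504, chr13:72628820-72634198, plus strand), which is often expressed beside Irx1 in the embryo, moved the other way. It had 11, 13 and 9 counts at passage 3, or 0.697, 0.801 and 0.455 CPM. It had 25, 19 and 33 counts at passage 20, or 2.47, 1.89 and 2.71 CPM. All passage 20 libraries were above all passage 3 libraries. The mean rose from 0.651 ± 0.177 to 2.36 ± 0.424 CPM, 3.68-fold higher (log2 fold change 1.88, SE 0.29, edgeR's quasi-likelihood test, p adjusted by Benjamini-Hochberg = 0.000123). Of the genes tested, 4.83% had a higher log2 fold change. On the authors' deposited log2 values, tested with limma, the rise was 0.97.

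Irx4 (ENSMUSG00000021604, chr13:73260479-73269608, plus strand), the ventricular member, had 0 counts in all 3 libraries of passage 3, which allows a level of up to 0.0579 CPM over the group. It had 1, 2 and 1 counts at passage 20, a pooled level of 0.124 CPM with a 95% exact Poisson interval of 0.0337 to 0.317 CPM. It did not pass the low-count filter and was not tested, and a difference was not detectable at this depth.

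The fit without replicate 3 of passage 20, the library nearest to passage 3, gave log2 fold changes of -2.30 for Irx3, -3.16 for Irx5, -4.13 for Irx6, -0.92 for Irx1 and 1.75 for Irx2. Each of the 5 genes was still called in that fit, in the same direction.

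Levels were compared between members per kilobase of merged exons. At passage 3 Irx3 (17.7 CPM per kb, libraries 17.5 to 18.1) and Irx5 (16.3 CPM per kb, libraries 15.2 to 17.1) led, and their order turned when the longest annotated transcript set the length (17.8 and 20.0 CPM per kb). Irx1 followed at 1.71 CPM per kb. Irx6 at 0.296 CPM per kb and Irx2 at 0.198 CPM per kb overlapped between libraries, and Irx4 was at 0. At passage 20 the order was Irx3 (3.99 CPM per kb), Irx5 (2.09), Irx1 (1.08), Irx2 (0.719), Irx4 (0.0486) and Irx6 (0.0180). There the libraries of Irx1 and Irx2 barely separated, with the lowest Irx1 library at 0.831 and the highest Irx2 library at 0.827 CPM per kb, and Irx4 and Irx6 rested on 4 and 2 counts.

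Summed over the 6 genes, the family had 106 ± 3.76 CPM at passage 3 and 22.9 ± 4.15 CPM at passage 20, 4.62-fold lower. The IrxB genes summed to 100.9 ± 3.60 CPM at passage 3 and 17.6 ± 3.13 CPM at passage 20, 5.73-fold lower. The IrxA genes summed to 5.12 ± 0.197 and 5.31 ± 1.03 CPM, a change smaller than the spread between the passage 20 libraries, with Irx1 lower and Irx2 higher. These sums mix genes that the tests treat singly and were given no p-value.

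The make-up of the family differed between the passages. IrxB gave 95.2 ± 0.107% of the family's counts at passage 3 and 76.9 ± 0.348% at passage 20, and IrxA gave 4.83 ± 0.107% and 23.1 ± 0.348%. Within IrxB, Irx3 held 46.1 ± 1.53% of the family's counts at passage 3 and 48.2 ± 1.81% at passage 20, whereas Irx5 went from 48.1 ± 1.39% to 28.4 ± 2.04%. Within IrxA, Irx1 went from 4.21 ± 0.132% to 12.2 ± 1.56%, and Irx2 from 0.617 ± 0.185% to 10.3 ± 1.33%. A library had between 203 and 2143 family counts, so the shares at passage 20 carry the larger counting error. Exact 95% binomial intervals of the IrxB share in the passage 20 libraries were 71.0 to 82.7%, 70.4 to 82.5% and 71.7 to 81.0%. These are far wider than the SD of 0.348%, which thus understates the error of the share.

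**Figure D2:**
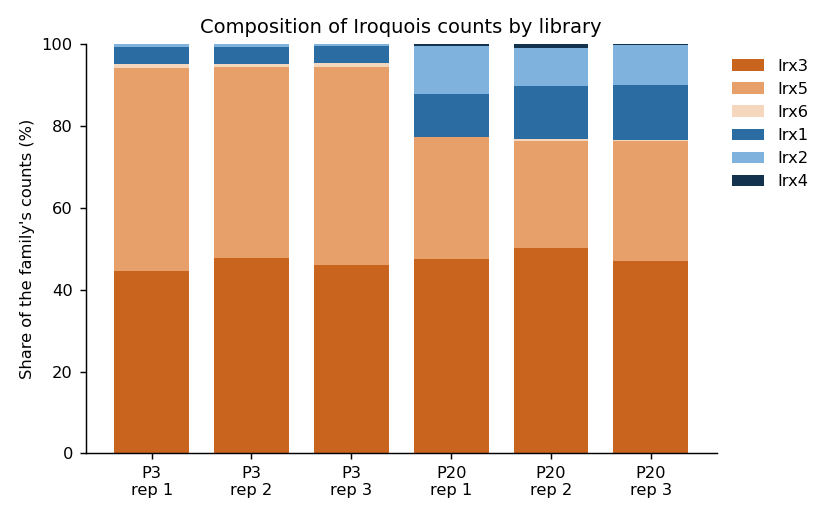
Share of the family's counts (percent) taken by each Iroquois gene in each of the 6 libraries. Irx3 and Irx5 fill most of every passage 3 library, and at passage 20 Irx1 and Irx2 take a visible share while that of Irx5 is smaller.

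Ratios of counts within a library compared the members of a cluster without any scaling. The log2 ratio of Irx3 to Irx5 counts was -0.06 ± 0.09 at passage 3 and 0.76 ± 0.16 at passage 20, a shift of 1.76-fold towards Irx3 (difference 0.82, exact two-sided permutation p = 0.1, adjusted over 4 pairs 0.133). The log2 ratio of Irx1 to Irx2 went from 2.76 ± 0.49 to 0.23 ± 0.36, a difference of -2.53 (exact two-sided permutation p = 0.1, adjusted 0.133). For both pairs every passage 20 library lay outside the range of the passage 3 libraries, and 0.1 is the smallest p that 3 libraries against 3 allow. The ratio of Irx3 to Irx6 was higher by 1.23 on the log2 scale at passage 20 (exact permutation p = 0.1, adjusted 0.133), and that of Irx5 to Irx6 by 0.42 (exact permutation p = 0.6). Both ratios to Irx6, which had 2 counts at passage 20, depended on the pseudocount of 0.5. With pseudocounts of 0.1 and 2 the difference for Irx3 and Irx6 was 2.27 and 0.04 (exact permutation p = 0.1 and 0.9), and that for Irx5 and Irx6 was 1.45 and -0.77. These 2 pairs thus give no stable size.

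The IrxA genes span 1311.688 kb and the IrxB genes 882.432 kb, with gaps of 298.001 to 665.096 kb between neighbouring members. Of 14 other annotated genes between the outermost IrxB genes, 9 had no count and 3 were tested. Irx3os, a transcript antisense to Irx3 (chr8:91800415-91807539), had 22, 28 and 26 counts at passage 3 and 1, 2 and 2 at passage 20. It was 9.04-fold lower (log2 fold change -3.18, SE 0.41, edgeR's quasi-likelihood test, p adjusted by Benjamini-Hochberg = 3.4e-05), and -1.19 on the authors' deposited log2 values. Like Irx6 it passed the filter through its passage 3 libraries alone, so its filter and test are not independent. It shares 124 of the 2762 exon bases of Irx3, and since no source used here gives the strand setting of the counting, reads of the 2 genes cannot be told apart there. Irx6 likewise overlaps an antisense gene, Gm45505, which had 0 counts.

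Crnde, a long non-coding RNA that starts beside Irx5, went from 5.74 ± 1.11 to 3.52 ± 0.739 CPM, 1.64-fold lower (log2 fold change -0.71, SE 0.20, edgeR's quasi-likelihood test, p adjusted by Benjamini-Hochberg = 0.00796). Its fall was smaller than the 7.70-fold fall of Irx5, though that difference was not tested. Gm21817, which overlaps Crnde on the same strand, was at a log2 fold change of -0.65 and was not called (adjusted p = 0.0806). Between the IrxA genes 10 others are annotated, of which 8 had no count and 1 was tested, the processed pseudogene Rpl9-ps4. Its reads may come from other copies of that ribosomal gene, and it was 2.45-fold higher (log2 fold change 1.29, adjusted p = 0.00433), against 0.62 on the authors' deposited log2 values.

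Coding genes that flank the clusters changed in both directions. Within 1 Mb of IrxB, 7 of 19 coding genes were tested, with 3 higher, 2 lower and a median log2 fold change of 0.22, beside -0.01 over all genes tested. Fto, an RNA demethylase gene whose introns hold distant enhancers of Irx3 and Irx5, had 134 ± 5.04 CPM at passage 3 and 160 ± 2.95 CPM at passage 20, 1.19-fold higher (edgeR's quasi-likelihood test, adjusted p = 0.000853), but its log2 fold change turned from 0.26 to -0.08 when library sizes alone set the scale. Mmp2, a matrix metalloproteinase, was 1.53-fold higher and Rbl2, a pocket protein of the cell cycle, 1.26-fold higher. Rbl2 lost its call under that scale (log2 fold change 0.00), and it overlaps Aktip on the other strand. Rpgrip1l, a gene of the ciliary transition zone, was 2.08-fold lower, and Chd9, a chromatin remodeller, 1.19-fold lower. Irx3, Irx5 and Irx6 thus stood in a neighbourhood whose tested coding genes changed at most 2.08-fold.

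Within 1 Mb of IrxA, 13 of 18 coding genes were tested, with 1 higher, 7 lower and a median log2 fold change of -0.24. All 18 lie beyond Irx4, from Ndufs6 at 50.23 kb to Ahrr at 941.51 kb past it, and none lies on the Irx1 side. Nkd2, an inhibitor of Wnt signalling, went from 190 ± 6.76 to 30.3 ± 4.84 CPM, 6.24-fold lower. Ahrr, the repressor of the aryl hydrocarbon receptor, was 3.05-fold lower, and Tppp, a microtubule-binding protein gene, was 2.60-fold higher. The other called genes were Mrpl36, Exoc3, Ndufs6, Trip13 and Clptm1l, at 1.18-fold to 1.94-fold lower, of which Mrpl36 and Ndufs6 overlap on opposite strands.

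**Figure D3:**
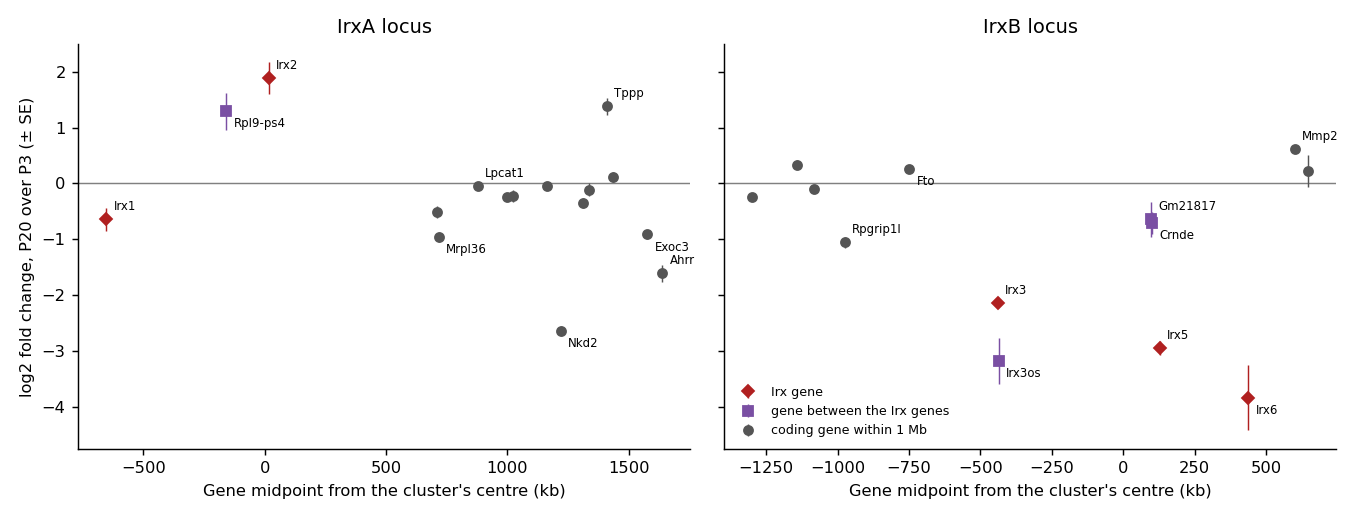
Log2 fold change (passage 20 over passage 3, ± SE) of each tested gene against the distance of its midpoint from the centre of the IrxA (left) or IrxB (right) cluster in kb; diamonds are Irx genes, squares genes between them and circles coding genes within 1 Mb. In IrxB the 3 Irx genes and Irx3os lie below every flanking coding gene, and in IrxA Irx1 and Irx2 lie on opposite sides of 0.

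Promoter sequence was at hand for Irx2, Irx3 and Irx4 (3 of 6 members, RefSeq, GRCm38.p6). The 250 bases before the start of Irx2, the member that rose, are shown with each CG in capitals (chr13:72628570-72628819, plus strand).
Irx2: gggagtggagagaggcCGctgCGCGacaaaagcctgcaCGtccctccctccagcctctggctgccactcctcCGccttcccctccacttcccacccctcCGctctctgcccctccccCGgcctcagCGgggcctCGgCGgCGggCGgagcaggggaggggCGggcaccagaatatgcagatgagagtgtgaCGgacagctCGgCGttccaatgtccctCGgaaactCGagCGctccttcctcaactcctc
They hold 19 CG, and 19.7% of 32851 promoters held at least as many in the same span, where the median was 6. The windows of Irx3 (chr8:91801655-91801904, minus strand) and Irx4 (chr13:73260247-73260496, plus strand) held 13 and 22 CG. Each ends at a RefSeq start that differs from the GENCODE gene start given above. The Irx3 window thus lies inside the GENCODE span of Irx3, and the Irx4 window reaches past the GENCODE start of Irx4. Neither the Iroquois-type motif ACANNTGT (in 6.31% of promoters), TATAAA (12.4%), the TCF/LEF motif CTTTGAT (3.21%) nor the GLI motif TGGGTGGTC (0.225%) was in these 3 windows on either strand.

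Genes that work with Iroquois factors were read from lists, beside 37.0% higher and 37.3% lower over all genes tested. The lists, the marker sets and the flanking genes share members, among them Fto, Rpgrip1l, Hand2, Tbx5 and Mef2c, so they are not separate. Of 16 limb and hedgehog partners of Irx3 and Irx5, 15 were tested, 4 were higher and 9 lower, with a median log2 fold change of -0.54. Alx4, an anterior limb regulator, fell from 117 ± 2.73 to 4.16 ± 0.839 CPM (27.8-fold lower), though it overlaps Ext2 on the other strand, and Tbx4, the hindlimb T-box gene, fell from 169 ± 2.98 to 11.7 ± 1.03 CPM (14.4-fold lower). Ptch1, the hedgehog receptor, was 1.70-fold higher and Fgf10, a limb bud growth factor, 1.97-fold higher. Markers of limb mesenchyme moved with IrxB: 8 of 9 passed the filter, all 8 were lower, and Shh was at 0. Their summed level was 1296 to 1325 CPM at passage 3 and 545 to 624 CPM at passage 20. Lmx1b, with 59 and 9 counts, passed the filter through passage 3 alone. Tbx4 and Prrx1, which were lower, and Shh are also in the partner list, so the sets are not separate. The part of limb mesenchyme in the fall of Irx3 and Irx5 was not tested.

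Cardiac partners and targets showed both directions, with 13 of 16 tested, 7 higher and 4 lower, and a median of 0.49. When library sizes alone set the scale, 6 were higher and 4 lower, with a median of 0.16. With no filter 7 were higher and 5 lower, with a median of 0.21. Mef2c, a regulator of heart muscle genes, was 2.68-fold higher and Hand1 2.11-fold higher. Tbx3, the T-box gene of the conduction system, fell from 203 ± 2.33 to 70.1 ± 10.9 CPM (2.88-fold lower) and overlaps Tbx3os1. Kcnd2, the potassium channel gene that Irx5 represses in ventricular muscle, had 11, 21 and 18 counts at passage 3 and 0, 1 and 1 at passage 20, a pooled ratio of 15.6-fold lower with a counting interval of 4.10 to 132. It too passed the filter through passage 3 alone. Both Kcnd2 and Irx5 were thus lower at passage 20. Summed cardiomyocyte markers were at 12.9 to 14.8 CPM at passage 3 and 11.1 to 13.0 CPM at passage 20. That sum held opposed changes, with 2 markers higher (Myh7 and Tnnt2) and 2 lower (Tnni3 and Ryr2).

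The other TALE homeobox genes, which include the Meis and Pbx cofactors of Hox proteins, were all 12 tested, with 5 higher, 4 lower and a median of 0.10. When library sizes alone set the scale, 4 were higher and 6 lower, with a median of -0.23. Meis2 was 1.98-fold and Pbx3 1.65-fold higher. Mkx, the tendon regulator and the TALE gene nearest in kind to the Iroquois genes, fell from 19.7 ± 1.54 to 4.33 ± 0.418 CPM, 4.56-fold lower.

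Of 14 neural tube partners of Irx3 only 5 passed the filter, with 2 higher, 3 lower and a median of -0.46. The median was 0.45 with no filter. Msx1 and Msx2, dorsal homeobox genes, were 1.64-fold and 1.38-fold lower. Sox2, a neural progenitor gene, and Pax3, a dorsal gene, were 1.40-fold and 1.93-fold higher, and both lost their calls when library sizes alone set the scale (log2 fold changes 0.15 and 0.62), which left 0 higher and 3 lower. Summed neural markers were at 115 to 119 CPM at passage 3 and 106 to 128 CPM at passage 20, with Neurod1 at 0, a sum of opposed changes in which 2 markers were higher and 4 lower.

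Of 11 adipocyte browning genes tied to Irx3 and Irx5, 8 were tested, with 3 higher, 2 lower and a median of -0.25. When library sizes alone set the scale, 0 were higher and 4 lower, with a median of -0.58, and upper-quartile factors gave 2 higher and 3 lower. Dio2, the deiodinase of brown fat, was 17.2-fold lower (log2 fold change -4.10, against -2.82 on the authors' deposited log2 values), and Ppargc1a, a coactivator of mitochondrial genes, was 1.29-fold higher, the latter at a log2 fold change of 0.04 when library sizes alone set the scale. Summed adipocyte markers were at 1.52 to 1.60 CPM at passage 3 and 11.6 to 16.8 CPM at passage 20, with Lep at 0 and only Fabp4 past the filter. Of 11 nephron partners of Irx1, Irx2 and Irx3, 7 were tested, with 2 higher, 3 lower and a median of -0.09 (0.02 with no filter), and 1 was higher and 4 lower when library sizes alone set the scale. Osr1, an early kidney regulator, was 7.70-fold lower (log2 fold change -2.94, against -1.89 on the authors' deposited log2 values) and Jag1, a Notch ligand, 1.55-fold lower. Dll1, another Notch ligand, was 4.63-fold higher (log2 fold change 2.21, against 1.14 on those values), and Wt1 was 1.54-fold higher (edgeR's quasi-likelihood test, adjusted p = 0.0425, but 0.142 with DESeq2 and 0.0666 with a replicate block).

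Markers of other cell types also moved with passage. All 6 epithelial markers were higher, with a summed level of 88.1 to 92.3 CPM at passage 3 and 178 to 206 CPM at passage 20. Of 6 fibroblast markers 4 were higher and 2, Thy1 and Pdgfrb, lower. The fibroblast sum was 8445 to 8889 CPM at passage 3 and 21036 to 25062 CPM at passage 20. Its largest parts were the collagen genes Col1a1 (means of 4353 and 12540 CPM) and Col3a1 (3675 and 9378 CPM). Endothelial markers summed to 16.9 to 19.7 CPM and 10.8 to 11.4 CPM, with Emcn at 0. Of these 4 were tested, with 1 higher and 2 lower. Nephron progenitor markers summed to 32.4 to 38.6 CPM and 23.0 to 34.0 CPM, with Pax8 at 0. Here 3 were tested, with 0 higher and 1 lower (Osr1), and Six2, the largest part of the sum, was not called. The part of these cell types in the rise of Irx2 and the fall of the others was not tested.

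**Figure D4:**
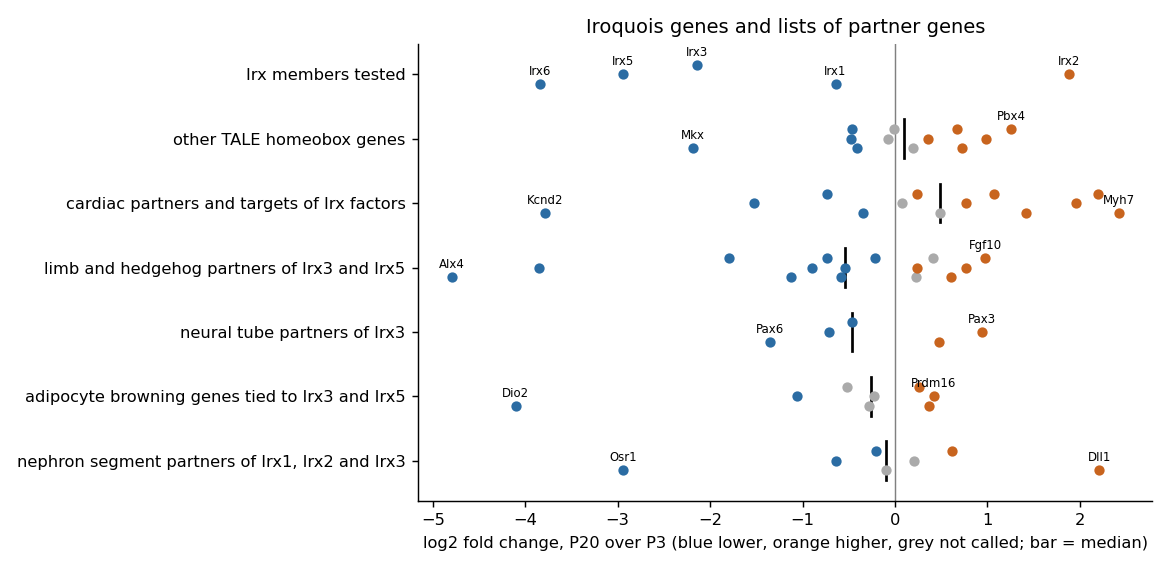
Log2 fold change (passage 20 over passage 3) of each tested gene of the 6 partner lists and of the tested Iroquois genes, with the median of each list. Every list has tested genes on both sides of 0, and the limb and hedgehog list holds 9 genes called lower and 4 called higher.

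Genes with the most similar profile were found by the Euclidean distance of log2 CPM, centred on the passage 3 mean, over the 6 libraries among 11439 coding genes. Near to Irx3 was Apcdd1, an inhibitor of Wnt signalling (distance 0.108), which fell from 432 ± 17.9 to 101 ± 15.2 CPM. Nearest to Irx5 were Wdr5b (0.151), which overlaps the far more abundant Fam162a, and Lrrc15, a membrane protein gene of stromal cells (0.339). Irx1 lay nearest to Plagl2 (0.115) and Ccdc71 (0.119), and Irx2 to Mfsd9 (0.194) and Etnk2 (0.358). Ccdc71 overlaps the more abundant Klhdc8b on the other strand. For Irx6 the nearest were the agouti gene (0.387), which overlaps more abundant genes, and Snx11 (0.414). Likeness here is over a single contrast of 2 passages, and many genes share such a profile.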

How the data were processed

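The passage named in the labels put 6 RNA-seq libraries into 2 groups. Whole-number counts for each gene were deposited by the authors, and the deposited second set of values is on a log2 scale. The build GRCm38 and the tools HTSeq, DESeq2, SAMtools and HISAT2 2.0.5 are named in the submitters' processing notes. The sources used here do not give the transformation behind the log2 values, the roles of the tools, the annotation release, the strand setting or the read length. Gene names and positions came from GENCODE M21, which matched 53706 of 53801 identifiers. Low-count genes were removed with filterByExpr (at least 0.733 CPM in 3 libraries, among its criteria), leaving 15143 genes.

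After TMM scaling, the robust quasi-likelihood test of edgeR 4.0.16 was run in R 4.3.3, with Benjamini-Hochberg adjustment over all genes tested and a threshold of 0.05. When library sizes alone set the scale, the median log2 fold change over all genes was -0.34 in place of -0.01, and 29.9% of calls were higher in place of 49.8%. No Iroquois gene changed direction. Pair ratios used counts plus 0.5. Intervals are at 95% and a group at 0 has a floor of 3 counts, both for counting error only.

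The members, lists and tests were chosen with earlier results of these data known. Named were all Iroquois genes, tested genes between or overlapping them, called coding genes within 1 Mb, up to 2 genes per direction of each partner list by adjusted p, and the 2 coding genes of at least 5 CPM with the nearest profile per called member, with a prior count of 2. Results of 2 genes under this rule are not reported here. Overlaps with genes of few counts are not listed. Alternatives were other scalings, DESeq2 1.42.0, limma-voom and limma 3.58.1 on the authors' deposited log2 values, other filters, a replicate block, a stricter threshold and each library left out.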

Additional observations from a re-analysis of the deposited data

How the results depend on the processing

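Of 79 values of the tested Iroquois genes under the alternatives, 77 kept their direction and their side of the threshold, 2 lost the call and 0 reversed. Both losses were Irx1, at -0.64 with a threshold of 0.01 and when libraries were left out in turn, where its log2 fold change ranged from -0.92 to -0.49. Irx6 could not be tested with at least 1 CPM required in 3 libraries. On the authors' deposited log2 values the log2 fold changes of low-count genes were smaller: -1.19 for Irx6, 0.97 for Irx2, -1.16 for Kcnd2, -1.96 for Wdr5b and -1.69 for the agouti gene (a). The same held for Irx3os, Dio2, Osr1, Dll1 and Rpl9-ps4. Of the genes named, Irx3os, Irx6 and Kcnd2 had 0 passage 20 libraries over the CPM minimum of the filter, and Dio2, Osr1, Wdr5b and the agouti gene had 1. Dll1 and Rpl9-ps4 had 1 passage 3 library over it. With library sizes only, 3 neural tube partners (against 5) and 14 genes beside IrxA (against 9) were called. With a pseudocount of 2 the difference between Irx5 and Irx6 was -0.77 (0.42 at 0.5) and that between Irx3 and Irx6 was 0.04 (1.23 at 0.5). By CPM per kb IrxB held 94.7% of the family at passage 3, and with the longest transcript 2 members changed place at passage 3. Same-numbered libraries of the passages did not deviate together (correlations 0.014, -0.027 and 0.045 over 15143 genes), so the numbers were not taken as pairs. A replicate block called 11103 genes (11245 without it) and gave Irx1 -0.66, Irx2 1.88, Irx3 -2.15, Irx5 -2.95 and Irx6 -3.84, with no Iroquois call changed. Calls over all genes ranged from 9612 with a threshold of 0.01 to 12684 with no filter. Depth limits Irx4 and Irx6, with 4 and 54 counts in all, and 3 libraries a passage limit the exact tests to a p of 0.1.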
